A study of Equus caballus with 19 samples.

Results

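The 8 genes described here encode secreted glycoproteins of the tendon extracellular matrix (ECM). They are tenascin-C (*TNC*), tenascin-X (*TNXB*), periostin (*POSTN*), transforming growth factor beta induced protein (*TGFBI*), fibronectin (*FN1*), cartilage intermediate layer protein (*CILP*), SPARC (also called osteonectin) and ABI family member 3 binding protein (*ABI3BP*). They were selected by gene name with earlier results of these data known, and all 8 were found among the 29196 gene names of both deposited tables. Shares over all genes are therefore given beside theirs as a description and not as a test.

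Most of these proteins are matricellular or adhesive: they sit between the collagen fibrils and the cell surface and tune how firmly cells hold and pull on their matrix. Fibronectin is laid down by cells as a fibrillar network, bound mainly through integrin α5β1, on which collagen assembly partly depends. Tenascin-C weakens firm cell spreading on fibronectin and is abundant in loaded and healing tendon, whereas tenascin-X associates with collagen fibrils and its loss causes lax connective tissue. Periostin and TGFBI are related proteins built from fasciclin domains, and TGF-β induces both. SPARC binds collagen and takes part in its deposition, CILP is best known from cartilage, and ABI3BP is a secreted protein with fibronectin type III domains.

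The study asked how interleukin-1 beta (IL-1β), a proinflammatory cytokine, alters equine tenocytes and which changes the interleukin 1 receptor antagonist protein (IL1Ra) prevents. Tenocytes of the superficial digital flexor tendon were cultured from adult Thoroughbred horses, 1 line per donor, and held in three-dimensional (3D) gels of bovine type I collagen in serum-containing medium. All cells were wild type. The first batch held 5 lines (numbered 1 to 5 here), each as an untreated control and with 1 nM IL-1β. The second batch held 3 other lines (6 to 8), each in 3 conditions: untreated control, 1 nM IL-1β, or the same IL-1β dose together with 100 ng/ml IL1Ra. All 19 libraries were made at day 14, with 1 library per line and condition, and IL1Ra alone was not sequenced. The gels held expanded cells of a single isolated population in a matrix of another species, so the values describe mRNA of cultured cells and not tendon tissue.

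Values are DESeq2-normalised counts, which are estimated read counts per gene that the authors scaled within each batch. Library sums, in M (mega-) counts, were 43.4 to 49.2 M in the first batch and 24.96 to 34.6 M in the second, and levels were compared only within a batch. Levels of different genes were not compared, because transcript length was not used here. Of 10 tenocyte markers, 8 had at least 10 normalised counts in every control library of the first batch and 9 in every control library of the second. *TNMD*, a marker of mature tenocytes, was listed at 0 in all libraries but 1, the line 6 control, with 1.00 normalised count. The leukocyte markers *CD3E* and *AIF1* were at 0 in every control library, and the 5 endothelial markers together reached 15.2 to 91.0 normalised counts per library.

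A gene was called differentially expressed (DE) where limma, fitted on log2(normalised count + 1) over all tested genes, gave a Benjamini-Hochberg adjusted p under 0.05 together with a log2-fold change of 1 or more in size. Fold changes on this scale understate the change of genes with few counts. Intervals are 95% confidence intervals from the same fit.

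In the first batch IL-1β lowered the mRNA of 5 of the 7 glycoproteins that could be tested: *ABI3BP*, *TNC*, *TGFBI*, *FN1* and *SPARC*. Over all 14719 genes tested, 7.9% were DE and lower with IL-1β and 4.91% were DE and higher, and no glycoprotein was DE in the higher direction. The same 5 genes were lower with IL-1β in every line, as were 25% of all tested genes. The median log2-fold change was −1.40 over the 7 glycoproteins and −0.0034 over all tested genes. Bulk libraries cannot tell fewer cells expressing a gene from less of its mRNA in each cell.

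*ABI3BP* had the largest fall of the 7. Its control libraries held 12124, 8555, 4867, 16203 and 9043 normalised counts in lines 1 to 5. With IL-1β they held 146, 701, 348, 5569 and 919.8 normalised counts in the same order. Every line fell, but the line 4 library with IL-1β stayed above the lowest control, so the groups overlapped. The mean went from 10158 ± 4249 to 1537 ± 2274 normalised counts (SD, n = 5 lines), and the log2-fold change was −3.72 (standard error 0.80, interval −5.49 to −1.96, adjusted p = 0.00683 from limma). Only 0.829% of tested genes had a log2-fold change at or below this.

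*TNC* was the next lowest. Control libraries of lines 1 to 5 had 120674, 79912, 35007, 80479 and 55976 normalised counts. With IL-1β the values were 3050, 9522, 1418, 53849 and 16232 normalised counts. All 5 lines were lower, line 4 by far the least, and again the groups overlapped through that line alone. The mean fell from 74410 ± 32015 to 16814 ± 21515 normalised counts (SD, n = 5 lines), and the log2-fold change was −3.07 (standard error 0.84, interval −4.93 to −1.21, adjusted p = 0.0207 from limma). The call for *TNC* was lost without line 1 (adjusted p = 0.0904 from limma), without line 2 (0.0699) and without line 5 (0.0536), with a log2-fold change of at least 1 in size each time.

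*TGFBI*, named for its induction by TGF-β, also fell least in line 4. Controls of lines 1 to 5 had 55027, 37873, 20934, 45109 and 43047 normalised counts. With IL-1β they had 2255, 5997, 4026, 27032 and 11765 normalised counts. Line 4 again held the highest value under IL-1β and was the single treated library above the lowest control. The log2-fold change was −2.45 (standard error 0.58, interval −3.74 to −1.17, adjusted p = 0.0108 from limma).

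*FN1* and *SPARC* fell by less but without overlap between the groups, and in all 5 lines by similar amounts. *FN1* had 266627, 366271, 365873, 607160 and 466393 normalised counts in the controls of lines 1 to 5. With IL-1β it had 136985, 146471, 112101, 230894 and 176021 normalised counts. The highest treated library thus lay below the lowest control, and the log2-fold change was −1.36 (standard error 0.30, interval −2.03 to −0.69, adjusted p = 0.00817 from limma).

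*SPARC* had 271768, 227268, 267613, 227905 and 274537 normalised counts in the controls. Its treated libraries had 125994, 108095, 103493, 128000 and 176108 normalised counts. The controls formed a narrow band well above all treated libraries, and the log2-fold change was −1.005 (standard error 0.21, interval −1.47 to −0.54, adjusted p = 0.00612 from limma). That size is at the fold threshold itself, and without line 1, 2 or 3 it was −0.98, −0.99 and −0.91, which is below the threshold although the adjusted p passed each time. Groups that do not overlap, with IL-1β lower, were seen for 2 of the 7 glycoproteins and for 10.2% of all tested genes.

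*POSTN* and *TNXB* did not pass the test. *POSTN* controls had 931.5, 1219, 823.1, 430.4 and 206.4 normalised counts in lines 1 to 5. Treated libraries had 190.04, 276.8, 95.01, 579.7 and 224.1 normalised counts. Lines 1, 2 and 3 were lower with IL-1β and lines 4 and 5 higher, so the lines moved in both directions. The log2-fold change was −1.40 (interval −2.61 to −0.18, unadjusted p = 0.0284, adjusted p = 0.0837 from limma).

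*TNXB* had 108.2, 92.4, 311.8, 177.7 and 169.1 normalised counts in the controls. Treated libraries had 24.6, 95.7, 141.3, 180.05 and 104.8 normalised counts. Values were lower in lines 1, 3 and 5 and nearly level in lines 2 and 4, and the log2-fold change was −0.77 (interval −1.93 to 0.39, adjusted p = 0.306 from limma). In a newer RefSeq annotation *TNXB* overlaps *CYP21A1*, and *CILP*, *SPARC* and *ABI3BP* overlap long noncoding RNA genes, so reads of the overlapping parts may be shared between them.

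*CILP* was close to the limit of detection. It had 1.09 to 13.5 normalised counts in the controls of the first batch and 1.21 to 15.1 with IL-1β, and was not tested there because too few libraries reached 10. In lines 6, 7 and 8 it had 13.1, 6.60 and 4.32 normalised counts in the controls and 23.6, 0 and 5.29 with IL-1β. No difference was detectable at this depth.

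**Figure D1:**
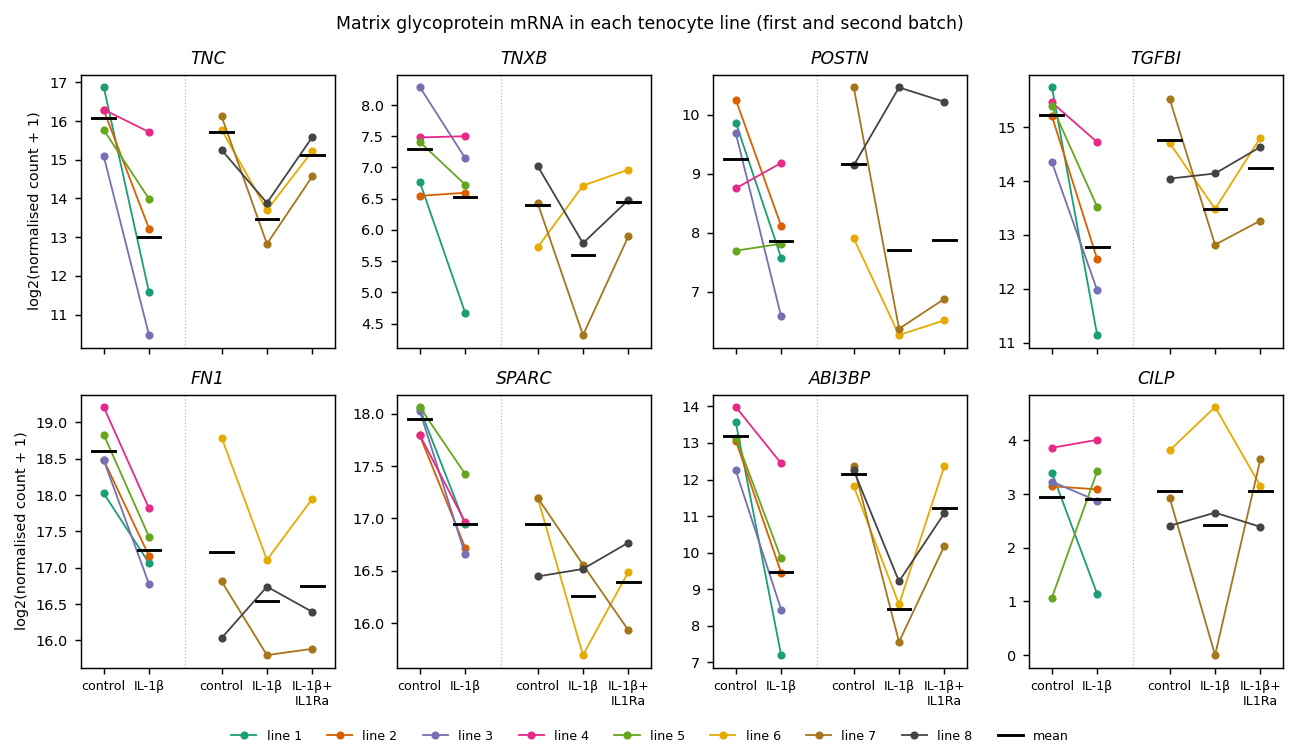
Level of each of the 8 glycoprotein mRNAs, as log2(normalised count + 1) on the vertical axis, in control and IL-1β libraries of the first batch (left of the dotted line) and in control, IL-1β and IL-1β + IL1Ra libraries of the second batch (right). Each point is 1 library, lines join libraries of 1 tenocyte line and black bars are group means. *FN1* and *SPARC* fall in parallel in lines 1 to 5, whereas *TNC*, *TGFBI* and *ABI3BP* fan out with IL-1β, with line 4 highest.

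The second batch put the same question to 3 other lines. *ABI3BP* and *TNC* were again lower with IL-1β in every line without overlap, but no glycoprotein passed the test in the fit over all genes. Of the 8 genes tested, 0 were DE in limma, against 0.0718% of all 16705 tested genes DE and lower. Unadjusted p was under 0.05 for 3 of the 8 (*ABI3BP*, *TNC* and *TGFBI*) and for 11.4% of all tested genes. In a fit blocked by tenocyte line, which compares each treated library with the control of its own line, 2 of the 8 (*ABI3BP* and *TNC*) were DE and lower, as were 2.59% of all tested genes. Over all tested genes 57 were DE without the block, 12 of them lower, and 22 of 57 were lower when the libraries were scaled to the same sum. The median log2-fold change was −1.03 over the 8 glycoproteins and −0.0084 over all tested genes.

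*ABI3BP* had 3613, 5303 and 4886 normalised counts in the controls of lines 6, 7 and 8. With IL-1β it had 383.9, 188.03 and 593.5 normalised counts. Every treated library lay far below every control, and the log2-fold change was −3.69 (standard error 0.58, interval −5.02 to −2.37, adjusted p = 0.0501 from limma, 0.0114 with the block). This was the lowest log2-fold change of the 8, and 0.455% of tested genes were at or below it. With 1 line left out and no block, the adjusted p from limma ran from 0.0312 (without line 6) to 0.710.

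*TNC* had 56084, 71309 and 39094 normalised counts in the controls of lines 6, 7 and 8. With IL-1β it had 13266, 7261 and 15121 normalised counts. The groups were well apart, and the log2-fold change was −2.25 (standard error 0.40, interval −3.17 to −1.33, adjusted p = 0.0676 from limma, 0.0241 with the block). With 1 line left out and no block, the adjusted p of *TNC* from limma ran from 0.106 to 0.638. Libraries of the 2 groups did not overlap, with IL-1β lower, for 2 of the 8 glycoproteins and for 7.61% of all tested genes.

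The remaining genes did not move the same way in the 3 lines. *TGFBI* had 26684, 46881 and 16912 normalised counts in the controls of lines 6, 7 and 8 and 11445, 7219 and 18065 with IL-1β. Lines 6 and 7 were lower and line 8 slightly higher, and the log2-fold change was −1.28 (interval −2.53 to −0.02, unadjusted p = 0.0473, adjusted p = 0.432 from limma).

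*FN1* had 453301, 115116 and 67024 normalised counts in the controls and 141255, 56984 and 109433 with IL-1β. The control of line 6 stood well above those of lines 7 and 8, and line 8 was higher with IL-1β. Its log2-fold change was −0.66 (interval −2.56 to 1.23, adjusted p = 0.861 from limma).

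*SPARC* had 150414, 150422 and 89246 normalised counts in the controls and 52981, 96471 and 93797 with IL-1β. Here too lines 6 and 7 were lower while line 8 was nearly level, giving a log2-fold change of −0.69 (interval −1.67 to 0.29, adjusted p = 0.621 from limma).

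*POSTN* had 238.9, 1417 and 562.9 normalised counts in the controls and 76.1, 82.0 and 1408 with IL-1β. Line 8 was higher and the other lines were lower, so treated libraries lay on both sides of the controls, and the log2-fold change was −1.47 (interval −4.61 to 1.67, adjusted p = 0.800 from limma). *TNXB* had 51.7, 85.3 and 129.05 normalised counts in the controls and 103.7, 18.9 and 54.3 with IL-1β, with a log2-fold change of −0.79 (interval −2.26 to 0.69, adjusted p = 0.762 from limma). The intervals of *FN1*, *SPARC*, *POSTN* and *TNXB* include both no change and changes as large as those of the first batch.

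**Figure D2:**
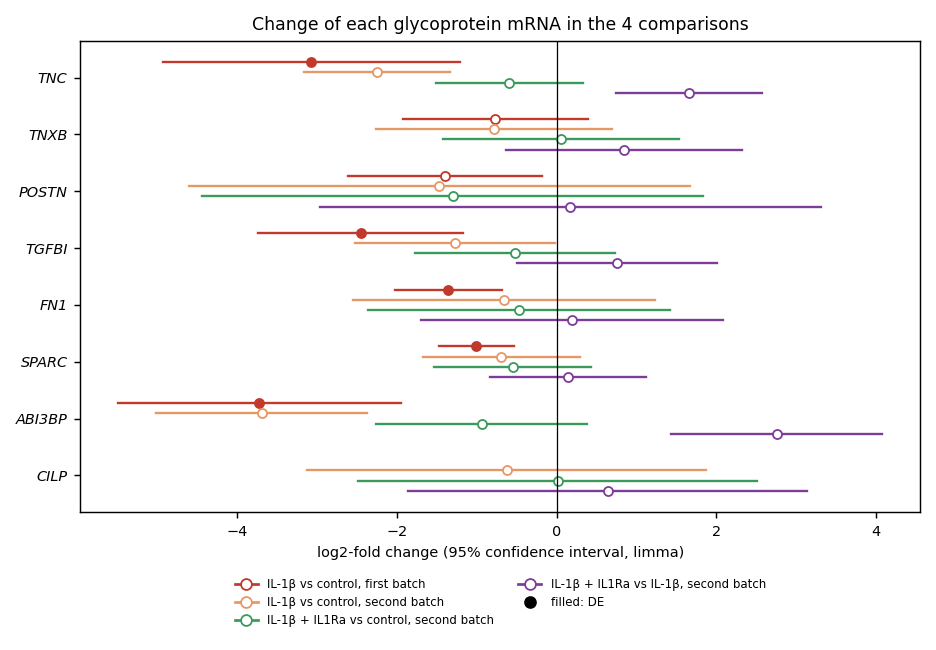
Log2-fold change of each glycoprotein mRNA (horizontal axis, points) with its 95% confidence interval from limma (bars) in the 4 comparisons, where filled points are DE. The 5 filled points all belong to IL-1β against control in the first batch, and *CILP* has no value there. The intervals of *TNC* and *ABI3BP* lie below 0 for IL-1β in both batches, and above 0 for IL-1β + IL1Ra against IL-1β.

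The change with IL-1β was then compared between batches as the log2 ratio of IL-1β to control within each line, 5 lines against 3. No difference passed the test: 0 of the 7 glycoproteins tested were DE, as were 0% of the 14478 genes tested in limma, and unadjusted p was under 0.05 for 0 of the 7 and for 802 of all genes. The ratio of *ABI3BP* was nearly the same on average, with a difference of 0.029 (second minus first batch, interval −2.56 to 2.61, adjusted p = 0.9995). The largest difference was that of *TGFBI*, 1.18 (interval −0.89 to 3.24, adjusted p = 0.965), and that of *TNC* was 0.82 (interval −1.70 to 3.35, adjusted p = 0.985). A difference of 1 on the log2 scale lies inside each of these 3 intervals, so one of that size could not be detected with these lines.

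Between lines of the first batch the glycoproteins split by how even their fall was. There the log2 ratio of IL-1β to control ran from −1.71 to −0.96 for *FN1* and from −1.37 to −0.64 for *SPARC*. For *ABI3BP* it ran from −6.36 in line 1 to −1.54 in line 4, and for *TNC* from −5.31 in line 1 to −0.58 in line 4. The second batch did not repeat this split. Its ratios ran from −1.68 to 0.71 for *FN1* and from −1.51 to 0.07 for *SPARC*. Those of *TNC* ran from −3.30 to −1.37 and those of *ABI3BP* from −4.81 to −3.04. Line 4 had the highest ratio of the 5 lines for 4 of the 8 glycoproteins (*TNC*, *ABI3BP*, *TGFBI* and *POSTN*), and for 26.3% of the 1163 genes that were DE and lower. Its median ratio over those 1163 genes was −1.66, inside the range of the 5 lines, which began at −2.12 in line 1.

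Line 8 had the highest ratio for 6 of the 8 glycoproteins in the second batch, with 0.10 for *TGFBI*, 0.71 for *FN1*, 0.07 for *SPARC* and 1.32 for *POSTN*, and −1.37 for *TNC* and −3.04 for *ABI3BP*. Over the same 1163 genes line 8 was highest for 42.3%, and its median ratio was −1.18 against −1.62 in line 6 and −1.38 in line 7. Line 7 had the lowest ratio for 6 of the 8, namely *ABI3BP* (−4.81), *POSTN* (−4.09), *TNC* (−3.30), *CILP* (−2.93), *TGFBI* (−2.70) and *TNXB* (−2.11), and for 31.7% of the 1163 genes.

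**Figure D3:**
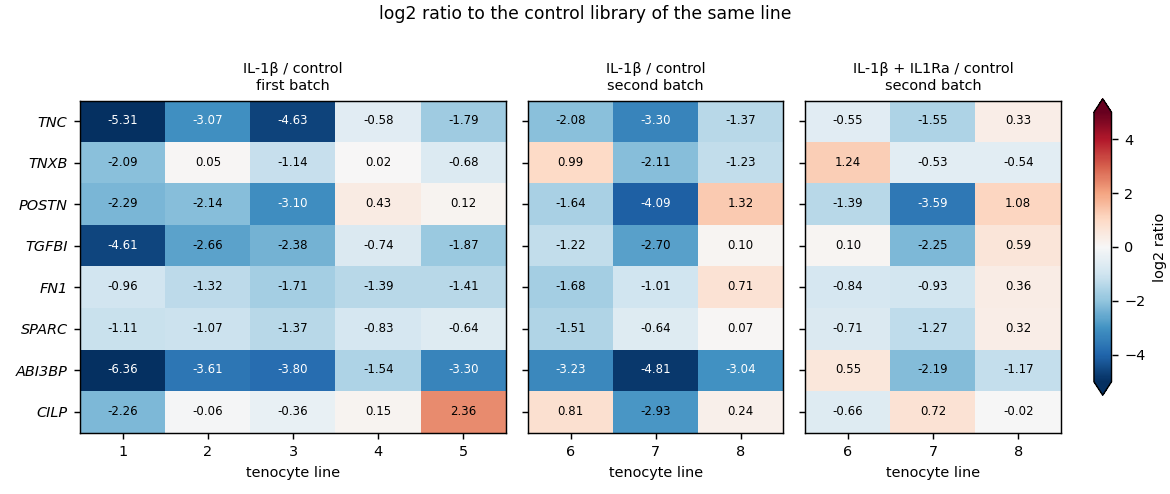
Log2 ratio of a treated library to the control library of the same tenocyte line for the 8 glycoprotein mRNAs (rows) in lines 1 to 8 (columns), with blue for lower, red for higher and the colour scale ending at −5 and 5. *ABI3BP* and *TNC* are blue in all 8 lines with IL-1β, and *FN1* and *SPARC* are even across lines 1 to 5. With IL1Ra added, *TNC* lies between −1.55 and 0.33.

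In the first batch the spread among the lines also differed between control and treated libraries. In first-batch controls the SD of log2 levels was 0.67 for *TNC*, 0.65 for *ABI3BP* and 0.14 for *SPARC*, where the median over all tested genes was 0.28. With IL-1β it was 2.05 for *TNC*, 1.95 for *ABI3BP* and 1.39 for *TGFBI* beside a median of 0.29, and these 3 lay at percentiles 98.5, 98.2 and 94.9 of all tested genes. For *SPARC* it was 0.30, at percentile 51.4. The second batch did not repeat the high percentiles of *TNC*, *ABI3BP* and *TGFBI*. With IL-1β their SDs there were 0.56, 0.83 and 0.66, at percentiles 56.2, 73.6 and 64.0, beside a median of 0.50. In second-batch controls they were 0.44, 0.29 and 0.74, beside a median of 0.37. *POSTN* varied widely in controls as well, with an SD of 1.03 in the first batch (percentile 90.9) and 1.28 in the second (percentile 88.2). *FN1* had an SD of 1.42 among the second-batch controls (percentile 89.8), where the line 6 library stood apart.

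The 8 glycoproteins together took 1.53% to 2.25% of the normalised counts of a control library in the first batch and 0.492% to 1.00% with IL-1β, so the groups did not overlap. *FN1* alone took 0.562% to 1.40% of those control libraries and *SPARC* 0.513% to 0.620%, so the sum mainly follows these 2 genes. In the second batch their share was 0.873% to 2.41% in controls, 0.486% to 0.792% with IL-1β and 0.529% to 1.56% with IL-1β + IL1Ra.

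IL1Ra, which occupies the IL-1 receptor without activating it, was added together with IL-1β in lines 6 to 8. *ABI3BP* and *TNC* were higher in every line than with IL-1β alone and did not overlap with it, while the other 6 glycoproteins had log2-fold changes of 0.14 to 0.84. Of these 6, *FN1*, *SPARC* and *POSTN* were lower in 1 of 3 lines and *CILP*, with few counts, in 2 of 3. In IL-1β + IL1Ra against IL-1β, 0 of the 8 glycoproteins were DE in limma, as were 0% of all 16705 tested genes. In the fit blocked by line 0 of the 8 were DE, and 0.00599% of all genes, which is 1 gene. Unadjusted p was under 0.05 for 2 of the 8 (*ABI3BP* and *TNC*) and for 2.78% of all genes. The values of this comparison and of the next share libraries with those of IL-1β against control, so none is independent of the others.

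With IL-1β + IL1Ra, *ABI3BP* reached 5280, 1164 and 2164 normalised counts in lines 6, 7 and 8, beside 383.9, 188.03 and 593.5 with IL-1β alone. In line 6 the level was above its own control of 3613, and in lines 7 and 8 it was below theirs of 5303 and 4886. The log2-fold change against IL-1β was 2.76 (standard error 0.58, interval 1.43 to 4.08, unadjusted p = 0.00126, adjusted p = 0.857 from limma). Against control it was −0.94 (interval −2.26 to 0.38, adjusted p = 0.9997 from limma).

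With IL-1β + IL1Ra, *TNC* reached 38252, 24317 and 49157 normalised counts, beside 13266, 7261 and 15121 with IL-1β alone. The ratio between these conditions was even, 1.53, 1.74 and 1.70 on the log2 scale in lines 6, 7 and 8. The log2-fold change against IL-1β was 1.66 (standard error 0.40, interval 0.74 to 2.58, unadjusted p = 0.00302, adjusted p = 0.9999 from limma), and against control it was −0.59 (interval −1.51 to 0.33, adjusted p = 0.9997 from limma). IL-1β + IL1Ra libraries above every IL-1β library were found for 2 of the 8 glycoproteins and for 3.12% of all tested genes.

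With IL-1β + IL1Ra, *TGFBI* reached 28679, 9845 and 25416 normalised counts, more than with IL-1β alone in 3 of 3 lines, and the log2-fold change was 0.76 (interval −0.50 to 2.01). *TNXB* had 123.9, 58.6 and 88.2 normalised counts and was also higher in 3 of 3 lines, its log2-fold change being 0.84 (interval −0.63 to 2.32). Of all tested genes, 15.6% were higher in every line. *FN1* had 252987, 60506 and 86069 normalised counts and a log2-fold change of 0.19 (interval −1.70 to 2.09), with line 8 lower.

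*SPARC* had 91993, 62494 and 111659 normalised counts, and its log2-fold change was 0.14 (interval −0.84 to 1.12), with line 7 lower. *POSTN* had 90.7, 116.8 and 1189 normalised counts, and its log2-fold change was 0.17 (interval −2.97 to 3.31). As with IL-1β alone, *POSTN* in line 8 was far above lines 6 and 7. *CILP* had 7.89, 11.5 and 4.24 normalised counts, too few to read a direction.

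Against control, 0 of the 8 glycoproteins were DE with IL-1β + IL1Ra in limma, beside 0.012% of all tested genes, and 0 of the 8 had an unadjusted p under 0.05, beside 5.67% of all genes. With the block 0 of the 8 were DE, beside 0.251%. Their log2-fold changes ran from −1.30 for *POSTN* (interval −4.44 to 1.84) to 0.06 for *TNXB* (interval −1.42 to 1.53), with a median of −0.54 against 0.0095 over all tested genes. *FN1* (−0.47, interval −2.36 to 1.42), *SPARC* (−0.55, interval −1.53 to 0.43) and *TGFBI* (−0.52, interval −1.78 to 0.74) lay between these. The interval of each of the 8 included a fall of 1 on the log2 scale, so a remaining fall of that size could not be detected with 3 lines.

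Genes with related roles were read from lists of the same tables. Of 28 tested related matrix glycoproteins, 11 were DE and lower with IL-1β in the first batch and 4 were DE and higher. The shares over all tested genes were 7.9% and 4.91%. The median log2-fold change of this list was −0.92. *FNDC1*, another protein with fibronectin type III domains, fell by 5.95 (standard error 0.74, adjusted p = 3.84e-04 from limma) and *MATN2*, a matrilin, by 4.94 (standard error 1.17, adjusted p = 0.0105, and 0.0563 without line 5), both on the log2 scale. *TNFAIP6*, which encodes the hyaluronan-binding protein TSG-6, had the largest rise, 2.79 (standard error 0.21, adjusted p = 2.58e-05), and *EDIL3*, an integrin-binding protein, rose by 2.23 (standard error 0.46, adjusted p = 0.00558). In the second batch 1 of 29 was DE, *TNFAIP6*, with a log2-fold change of 3.36 (adjusted p = 0.0146), and 6 of 29 with the block, 3 in each direction, where 5.18% of all tested genes were DE with the block.

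Among 13 integrins and syndecans, 2 were DE and higher and 1 was DE and lower in the first batch, with a median of 0.10. The shares over all tested genes were 4.91% and 7.9%. With the block 3 were DE and higher and 3 DE and lower, and 16.2% of all tested genes were DE in either direction. *ITGB8*, the integrin β8 chain, rose by 3.62 (standard error 0.36, adjusted p = 1.36e-04 from limma) and *SDC4*, syndecan-4, by 2.00 (standard error 0.16, adjusted p = 3.31e-05), while *ITGA9*, whose integrin binds tenascin-C, fell by 1.49 (standard error 0.33, adjusted p = 0.00748). The fibronectin receptor chains *ITGA5* and *ITGB1*, named here after their values were seen, had log2-fold changes of 0.10 (adjusted p = 0.749) and −0.0074 (adjusted p = 0.983). *ITGB8* (3.82, adjusted p = 0.0431) and *SDC4* (2.27, adjusted p = 0.0275) were the 2 genes of this list that were DE in the second batch. The second-batch calls of *TNFAIP6*, *ITGB8* and *SDC4* were lost without line 7 (adjusted p = 0.339 for each), and without line 8 (0.599, 0.599 and 0.673), and that of *ITGB8* also without line 6 (0.0576).

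Of 18 genes of the TGF-β pathway and its targets, 7 were DE and lower in the first batch and 0 were DE and higher, with a median of −0.21. Over all tested genes 7.9% were DE and lower there and 4.91% DE and higher. *LTBP2*, a latent TGF-β binding protein, fell by 3.02 (standard error 0.37, adjusted p = 3.35e-04 from limma) and *TAGLN*, a smooth muscle type actin-binding protein, by 1.90 (standard error 0.42, adjusted p = 0.00785). Of the 14 fibril assembly partners tested, 9 were DE and lower, with a median of −1.83, among them *COMP* (−4.08, standard error 1.01, adjusted p = 0.0132, and 0.0685 without line 5) and *THBS2* (−3.36, standard error 0.57, adjusted p = 0.00203). *COMP* and *THBS2* are thrombospondins that bind collagen or matrix proteins. Of these 2 lists 0 genes were DE in limma in the second batch, and 2 of each had an unadjusted p under 0.05, as did 11.4% of all tested genes. With the block 2 of each were DE, both fibril assembly partners lower, and of the TGF-β genes *LTBP2* lower (−2.17) and *TGFB2*, named here after its values were seen, higher (1.52), beside 5.18% of all tested genes.

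**Figure D4:**
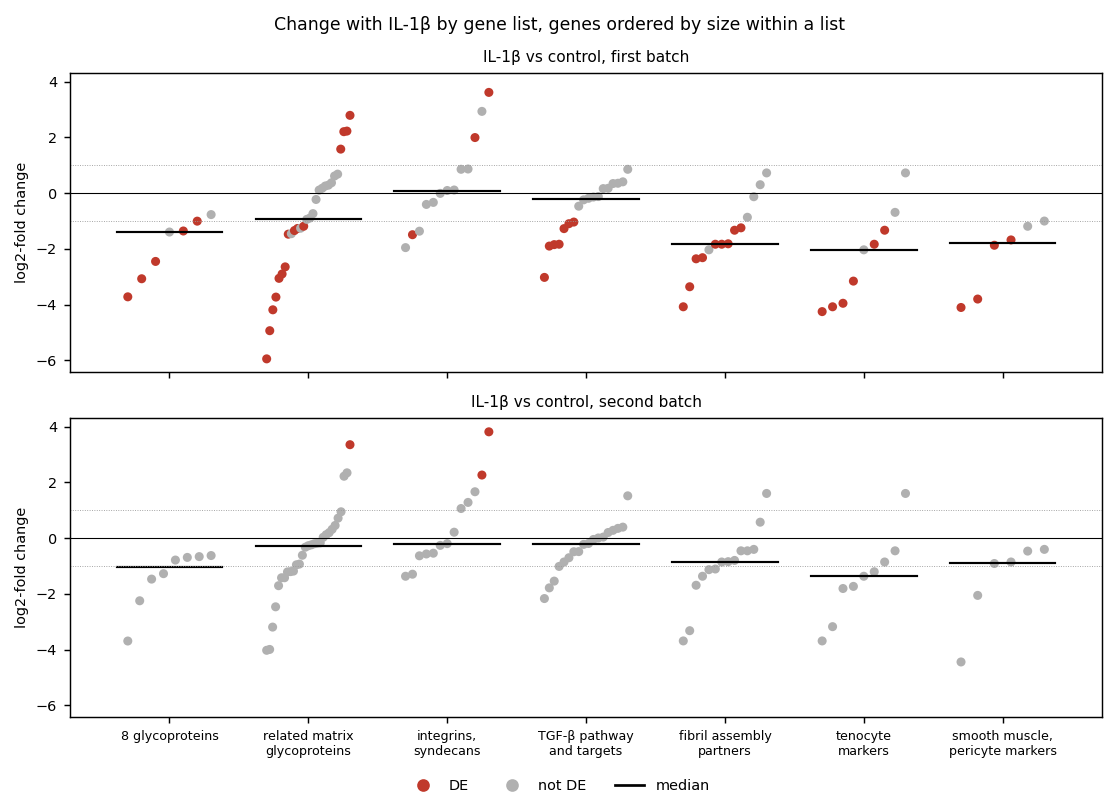
Change with IL-1β on the log2 scale (vertical axis) for each tested gene of 7 lists, ordered by size within a list, in the first batch (top) and the second (bottom). Red points are DE, grey points are not, and black bars are list medians. In the first batch the 8 glycoproteins (7 tested), the fibril assembly partners and the tenocyte markers lie mostly below 0, and integrins and syndecans lie on both sides.

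Markers of tenocytes and of other cell types were read in the same libraries. Of 9 tested tenocyte markers, 6 were DE and lower with IL-1β in the first batch, with a median of −2.03. Over all tested genes 7.9% were DE and lower. The tenocyte markers were led by *SCX*, the tendon transcription factor scleraxis (−4.25, standard error 0.71, adjusted p = 0.00190 from limma). Of the 6 smooth muscle and pericyte markers, 4 were DE and lower, with a median of −1.77, including *DES* (−4.10) and *CSPG4* (−3.80), and the summed level of the 6 was 20351 to 52311 normalised counts in controls and 5709 to 11925 with IL-1β. The single tested cartilage marker, *ACAN*, fell by 7.55, and the single tested epithelial marker, *CDH1*, fell by 4.75. Of the 3 leukocyte and endothelial markers tested 0 were DE in limma, 2 had an unadjusted p under 0.05, and 1 endothelial marker was DE and higher with the block. From the marker lists 0 genes were DE in limma in the second batch. A smooth muscle and pericyte marker was the 1 with an unadjusted p under 0.05, as were 11.4% of all tested genes. With the block 2 tenocyte markers, 2 smooth muscle and pericyte markers and 1 cartilage marker were DE and lower there, beside 2.59% of all tested genes. The part of these markers in the change of the 8 glycoproteins was not tested.

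The genes whose levels were most like those of 4 of the glycoproteins were found from log2 levels centred on the mean of each batch, by the mean absolute difference over all 19 libraries, among 12359 genes. Nearest to *TNC* were *TGFBI* (0.46), *TNFRSF13C* (0.58) and *NDUFA4L2* (0.60), where the median over all ranked genes was 1.39. Nearest to *ABI3BP* were *THBS2* (0.64), *TNC* (0.64) and *LOXL2* (0.66), with a median of 1.83. *FN1* was nearest to *SLC7A1* (0.25), *MIPOL1* (0.26) and *PRICKLE2* (0.26), with a median of 0.78. *POSTN* was nearest to *DYSF* (0.67), *CYP26B1* (0.68) and *PIANP* (0.71), with a median of 1.33. Among the 7 glycoproteins tested in both batches the closest pairs were *TNC* and *TGFBI* (0.46) and *FN1* and *SPARC* (0.56), and the farthest was *SPARC* and *ABI3BP* (1.47). These distances describe the same libraries that the fold changes do.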

How the data were processed

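RNA sequencing of 19 libraries was analysed. The deposited signal values are normalised counts, for which the authors quantified EquCab3.0 transcripts with Salmon, collapsed them to genes and scaled each batch on its own (DESeq2 1.36 in R 4.2.1, per the labels). How read strand was used is not given in the sources used here. Only 22.8% to 50.3% of a library's low values lay within 0.02 of a whole read, so reads could not be recovered for a count model.

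Here, log2(normalised count + 1) was modelled in limma 3.58.1 under R 4.3.3 (lmFit, eBayes with trend, two-sided). A gene was tested where 10 or more normalised counts were reached in 5 libraries of the first batch or 3 of the second, with Benjamini-Hochberg adjustment over all tested genes. The conditions of the second batch shared 1 fit. DE required an adjusted p under 0.05 and a log2-fold change of 1 or more in size. The fits were also run on simulated normal log2 values, with a change of 2 on the log2 scale in 200 genes. That simulation gave a gene the same spread in every condition, so it does not measure the error of the fits on these data. Precision is limited by the number of lines, and intervals cover the spread between them.

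Libraries of 1 line come from 1 donor, so line numbers pair them. Deviations from condition means correlated at 0.35 to 0.58 (5 pairs, first batch) and 0.54 to 0.79 (9 pairs, second batch) within a line, and at −0.62 to 0.29 between lines. Blocking by line was an alternative, as were other pseudocounts, filters and scalings, eBayes with no trend, 2 conditions fitted alone, and leaving out each line.

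The 8 genes and the lists were chosen with earlier results of these data known. Genes named from a list are its 2 DE genes with the largest rise and the 2 with the largest fall in the first batch, and its DE genes in the second batch where there were at most 3. The 8 names matched a RefSeq gene table of a newer assembly, used for overlaps only, so no coordinates are given.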

Additional observations from a re-analysis of the deposited data

Results flagged for a closer look

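Of 24 sets of 5 values checked for one apart from the others (16 groups of libraries and 8 sets of within-line ratios, all of the first batch), 1 stood out, and chance alone gives about 1 in 20. *CILP* in the first-batch control of line 5 had a log2 value of 1.07, from 1.09 normalised counts, the lowest of the 5. The gap to the next value was 0.744 of the range, where the limit is 0.71. *CILP* was not tested in that batch because of its low counts.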

How the results depend on the processing

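Each result was recomputed under other pseudocounts, filters and scalings, without the trend, on 2 conditions only, with the tenocyte line as a replicate block, and without each line in turn. Among the recomputed values of single genes, 20 lost a call, 6 gained one and 23 changed sign, and the others kept their direction and side of the threshold. Of the recomputed counts of DE genes, 135 stayed within 1.5 times and 23 did not. The cause of these changes was not tested.

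With the replicate block, which pairs the libraries of a line, 6 integrins and syndecans were DE in the first batch, and the second had 2 of the 8 glycoproteins, 6 related glycoproteins, 2 TGF-β genes and 2 fibril partners. The block changed no other call of the 8 glycoproteins. In the second batch 1 of the 8 glycoproteins was DE with a pseudocount of 5, with at least 10 normalised counts in every library, and on 2 conditions only, and 1 integrin or syndecan was DE after upper-quartile scaling, after scaling to the same sum and without the trend, but 0 on 2 conditions only. Scaling to the same sum also moved the median of all genes to −0.19 for IL-1β against control in the second batch and to 0.11 for IL-1β + IL1Ra against IL-1β, and with it *TNXB* was −0.025 and *CILP* −0.054 for IL-1β + IL1Ra against control. With a pseudocount of 5 the difference between batches for *TNXB* was 0.011.

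Without 1 line, 3 to 5 of the glycoproteins were DE in the first batch (3 without line 1 or line 2), whereas the second had 0 to 1 (1 without line 6). Integrins and syndecans that were DE numbered 3 to 5 and 0 to 4 in the 2 batches, related glycoproteins 0 to 3 in the second, and TGF-β genes 4 to 8 in the first. In the second batch, 364 of all genes were DE without line 6 and 0 without line 7 or line 8. The log2-fold change ran from −1.06 to 0.53 for *CILP* with IL-1β. For IL-1β + IL1Ra against control it ran from −0.54 to 0.35 for *TNXB*, −1.07 to 0.35 for *TGFBI* and −0.34 to 0.030 for *CILP*, and against IL-1β from −0.13 to 0.46 for *FN1*, −0.19 to 0.52 for *SPARC* and −0.87 to 1.09 for *CILP*. The difference between batches ran from −0.63 to 0.59 for *ABI3BP*, −0.91 to 0.65 for *TNXB*, −1.47 to 1.237 for *POSTN* and −0.068 to 0.72 for *SPARC*.

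Few counts limit *CILP*, and the number of lines limits the rest.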
